A study of Caenorhabditis elegans with 12 samples.

Results

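Cathepsins are acid proteases, and in Caenorhabditis elegans many of them are made by the intestine. The 10 genes described here are the cysteine proteases cpr-1, cpr-3, cpr-4, cpr-5 and cpr-6 and the aspartyl proteases asp-1, asp-3, asp-4, asp-5 and asp-6. They were named as cysteine and aspartyl proteases of the intestine and matched to the deposited tables by gene identifier, and 10 of 10 were found among 14505 genes. Poly-A RNA of whole L4 larvae had been sequenced from 4 strains, 3 libraries a strain. N2 was the wild type. The strain WBM55 (CA-CRTC-1) carried a form of CRTC-1, a coactivator of the transcription factor CREB, in which serines were replaced (S76A and S179A). WBM60 (CA-AAK-2) carried constitutively active AAK-2, one of the catalytic subunits of the energy sensor AMPK. WBM66 (CA-AAK-2;CA-CRTC-1) had both transgenes and is named the double strain. Each is 1 line, and the promoters that drive the transgenes are not given in the sources used here. All animals were grown at 20 °C on Escherichia coli OP50-1.

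Cathepsins are made as inactive precursors that mature in acidic compartments. In the worm gut they serve both digestion of the bacterial food in the lumen and protein turnover in lysosomes and lysosome-related gut granules. Cysteine cathepsins of the B type use a cysteine in the active site and are held in check by cystatins, whereas aspartyl cathepsins of the D type use a pair of aspartates. The GATA factor ELT-2 maintains transcription of intestinal genes, proteases included. Whole animals were used, so fewer gut cells and less RNA per gut cell cannot be told apart in any value below.

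Values are CPM, that is counts scaled to library size as normalised by the authors. A difference is a log2 difference of CPM plus 0.5 from limma, given with its SE. The SE rests on 1 estimate of the spread per gene, shared by all 12 libraries. It is not the spread within the groups compared. A gene is said to have risen or fallen where the Benjamini-Hochberg adjusted p over all genes tested was at most 0.01 and the change at least 1.5-fold. The libraries hold 30887631 to 48989013 counted reads, so 1 read is 0.0178 to 0.0285 CPM and none of the 10 genes was near the limit of detection. Transcripts of the transgenes followed the labels. crtc-1 was at 19.8, 18.3 and 23.4 CPM in N2, 19.2, 17.7 and 23.2 in CA-AAK-2, 183, 177 and 207 in CA-CRTC-1 and 379, 356 and 349.9 in the double strain. aak-2 was at 61.7 ± 5.58 and 63.7 ± 5.31 CPM (SD, n = 3) in N2 and CA-CRTC-1, and at 2529.6 ± 102 and 2992 ± 250.3 in CA-AAK-2 and the double strain. crtc-1 in the double strain was above its level in CA-CRTC-1 by 0.94 ± 0.10 (adjusted p = 1.7e-05). Library 3 of the double strain was the highest of its strain for 8 of the 10 protease genes, so counts that involve the double strain are given with and without it.

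In N2 the 10 genes ranged from abundant to scarce. Per kilobase of exon the order of mean levels was asp-1 (1923 CPM per kb), asp-3 (1019.7), cpr-6 (1016), asp-6 (897), asp-5 (517), cpr-1 (354), asp-4 (245), cpr-5 (195), cpr-4 (168) and cpr-3 (6.65). asp-3 and cpr-6 could not be ordered, since their per-length means lie closer than their spread between libraries. As counts not scaled to length, asp-1 held 28.5 ± 1.16% (SD, n = 3) of the summed CPM of the 10 genes and cpr-3 0.113 ± 0.0135%.

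**Figure D1:**
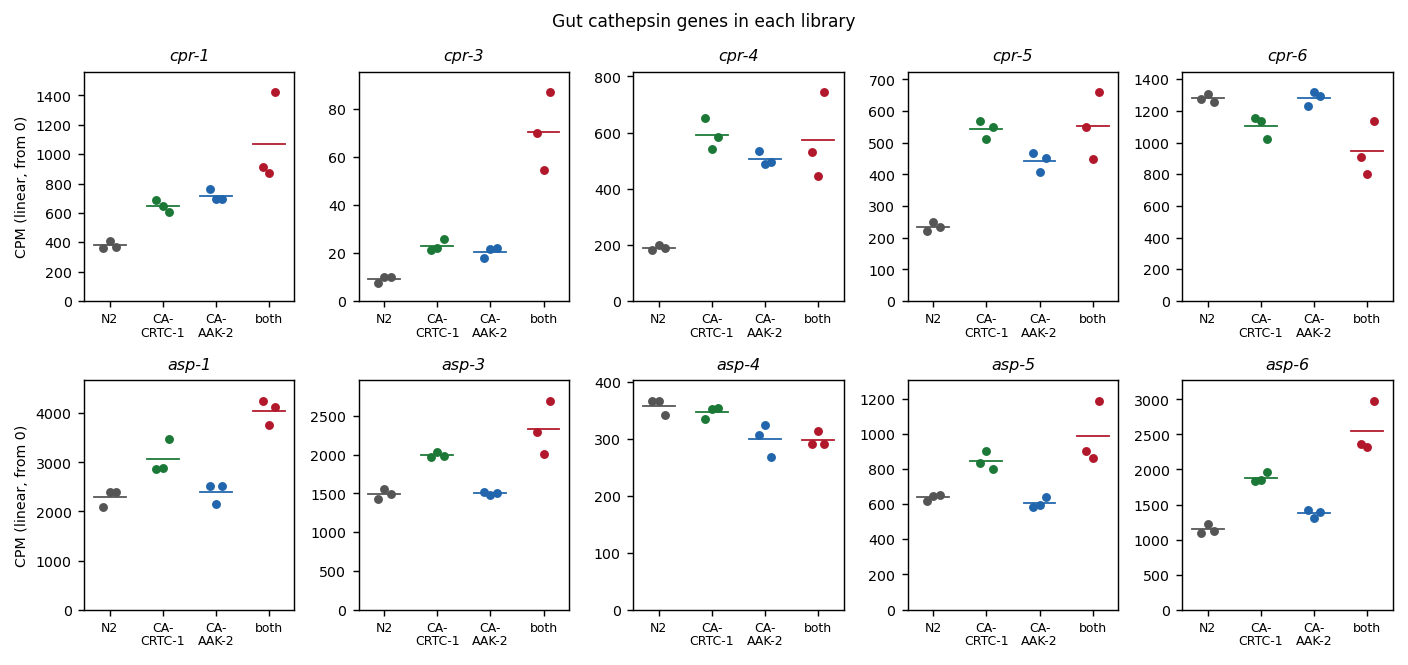
CPM of each of the 10 protease genes in each library (points) with the strain mean (line), on linear axes that start at 0, for N2, both single-transgene strains and the double strain. cpr-1, cpr-3, cpr-4 and cpr-5 lie above N2 in every library of the 3 transgenic strains, whereas asp-1, asp-3 and asp-5 overlap N2 in CA-AAK-2.

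The cysteine proteases cpr-1, cpr-3, cpr-4 and cpr-5 were higher than in wild type in all 3 transgenic strains. cpr-1, first described as a gut-specific cysteine protease, was at 364, 409.7 and 369.6 CPM in the 3 N2 libraries, 691, 649 and 604 in CA-CRTC-1, 765, 696 and 693 in CA-AAK-2 and 915, 873 and 1421 in the double strain. The strains did not overlap, and their means were lowest in N2, then CA-CRTC-1, then CA-AAK-2, and highest in the double strain, with the 2 single-transgene strains close together. Against N2 cpr-1 rose by 0.77 ± 0.14 in CA-CRTC-1 (adjusted p = 9.0e-04), 0.91 ± 0.14 in CA-AAK-2 (1.4e-04) and 1.45 ± 0.14 in the double strain (8.6e-07). CA-AAK-2 and CA-CRTC-1 differed by 0.15 ± 0.14 with a 95% interval of -0.15 to 0.44 (adjusted p = 0.436).

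cpr-3, a cathepsin B-like gene, was the scarcest of the 10 and had the largest rise in the double strain. It was at 7.48, 9.90 and 9.92 CPM in N2, 21.2, 22 and 25.9 in CA-CRTC-1, 18.1, 21.6 and 21.9 in CA-AAK-2 and 70.0, 54.7 and 86.9 in the double strain. CA-CRTC-1 and CA-AAK-2 overlapped, and every double library was over both and over N2. The rises were 1.30 ± 0.15 (2.46-fold, adjusted p = 2.0e-05), 1.14 ± 0.15 (2.2-fold, 5.9e-05) and 2.87 ± 0.15 (7.33-fold, 3.3e-09). Its ratio to cpr-4 was 0.0412 to 0.0523 in N2, 0.0325 to 0.0444 in CA-CRTC-1 and 0.0338 to 0.0443 in CA-AAK-2, as ranges over libraries. In the double strain that ratio was 0.117 to 0.132, above every other library.

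cpr-4 encodes a secreted cathepsin B homologue. It was at 181, 199 and 189.7 CPM in N2, 653, 542 and 583 in CA-CRTC-1, 535, 488 and 495 in CA-AAK-2 and 529, 444 and 743 in the double strain. All 9 transgenic libraries were above all N2 libraries, and the 3 double libraries spanned the values of both single-transgene strains. cpr-4 rose by 1.63 ± 0.14 (3.1-fold, adjusted p = 7.9e-07) in CA-CRTC-1, 1.41 ± 0.14 (6.0e-06) in CA-AAK-2 and 1.55 ± 0.14 (4.1e-07) in the double strain.

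cpr-5, another cathepsin B-like gene, was at 221, 249 and 234 CPM in N2, 568, 511 and 549.6 in CA-CRTC-1, 469, 409 and 451 in CA-AAK-2 and 549, 448 and 659 in the double strain. It had the same layout as cpr-4, with N2 below all others and the double strain overlapping both single-transgene strains. The rises were 1.21 ± 0.11 (2.31-fold, adjusted p = 1.7e-06), 0.91 ± 0.11 (2.5e-05) and 1.22 ± 0.11 (5.2e-07). Over the 12 libraries log2 CPM of cpr-4 and cpr-5 correlated at 0.99, given as a description of libraries that share 4 strains.

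In CPM the aspartyl proteases asp-1, asp-3, asp-5 and asp-6 had another layout, in which the 2 strains with CA-CRTC-1 were high and CA-AAK-2 lay near N2. asp-6 encodes an aspartyl protease and was at 1092, 1220.5 and 1118 CPM in N2, 1427, 1305 and 1387 in CA-AAK-2, 1829.6, 1847 and 1967 in CA-CRTC-1 and 2359, 2316 and 2980.1 in the double strain. The 4 strains did not overlap. asp-6 rose by 0.72 ± 0.09 in CA-CRTC-1 (adjusted p = 4.3e-05) and 1.15 ± 0.09 in the double strain (1.7e-07), and its difference in CA-AAK-2 was 0.26 ± 0.09 (0.0288), short of the threshold.

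asp-1, the most abundant of the 10 genes and an aspartyl protease of the intestine, was at 2093, 2389 and 2390.2 CPM in N2 and 2526, 2160.5 and 2510.3 in CA-AAK-2, which overlap. It was at 2857, 2886 and 3483 in CA-CRTC-1 and 4255, 3754 and 4134 in the double strain, with no overlap between these or with N2. The rise in the double strain was 0.82 ± 0.10 (1.77-fold, adjusted p = 7.5e-06). In CA-CRTC-1 the difference was 0.42 ± 0.10 (1.34-fold, 0.00588), under the 1.5-fold limit.

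asp-3 encodes a lysosomal cathepsin D-like protease that takes part in necrotic death of worm neurons. Its levels were 1429.5, 1553 and 1489.9 CPM in N2, 1525, 1474 and 1509 in CA-AAK-2, 1965, 2032 and 1982 in CA-CRTC-1 and 2292, 2008 and 2697 in the double strain. asp-5, a further aspartyl protease gene, was at 621, 649.9 and 652 CPM in N2, 587, 594 and 644 in CA-AAK-2, 837, 904 and 801 in CA-CRTC-1 and 904, 866 and 1189 in the double strain. For both genes CA-AAK-2 overlapped N2, and CA-CRTC-1 overlapped the double strain while standing above N2. The differences in CA-CRTC-1 were 0.42 ± 0.09 (adjusted p = 0.00319) for asp-3 and 0.40 ± 0.10 (0.00861) for asp-5, both under 1.5-fold. In the double strain asp-3 rose by 0.64 ± 0.09 (3.3e-05) and asp-5 by 0.61 ± 0.10 (1.2e-04), close to the limit. Without library 3 of the double strain these were 0.53 and 0.47, without N2 library 1 asp-5 was 0.58, and after median-ratio scaling they were 0.47 and 0.44, which are not called.

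cpr-6 and asp-4 were not raised in any strain. cpr-6, also of the cathepsin B type, was at 1275, 1308 and 1257 CPM in N2, 1153, 1134 and 1019.9 in CA-CRTC-1, 1234, 1317 and 1297 in CA-AAK-2 and 911, 802 and 1134 in the double strain. The double and CA-CRTC-1 libraries were all below N2. The difference was -0.45 ± 0.10 in the double strain (adjusted p = 0.0016), short of 1.5-fold as deposited, and -0.62 after median-ratio scaling, which is a called fall. It was -0.22 ± 0.10 in CA-CRTC-1 (0.128) and 0.00 ± 0.10 in CA-AAK-2 (0.986).

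asp-4, a lysosomal cathepsin D-like protease with the same reported role in necrosis as asp-3, was at 366, 366 and 342 CPM in N2, 334, 353 and 353 in CA-CRTC-1, 306, 325 and 267 in CA-AAK-2 and 291, 313 and 290.0 in the double strain. The strains with CA-AAK-2 were below N2 in every library, with differences of -0.26 ± 0.07 (adjusted p = 0.00887) and -0.27 ± 0.07 (0.006), under 1.5-fold. In the annotation 33 of its exonic bases overlap R12H7.4 on the other strand, and the library kit kept no strand, so reads there cannot be told apart. The ratio of asp-6 to asp-4 was 2.98 to 3.33 in N2, 5.23 to 5.56 in CA-CRTC-1, 4.02 to 5.19 in CA-AAK-2 and 7.41 to 10.28 in the double strain, so the aspartyl genes did not keep their proportions.

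**Figure D2:**
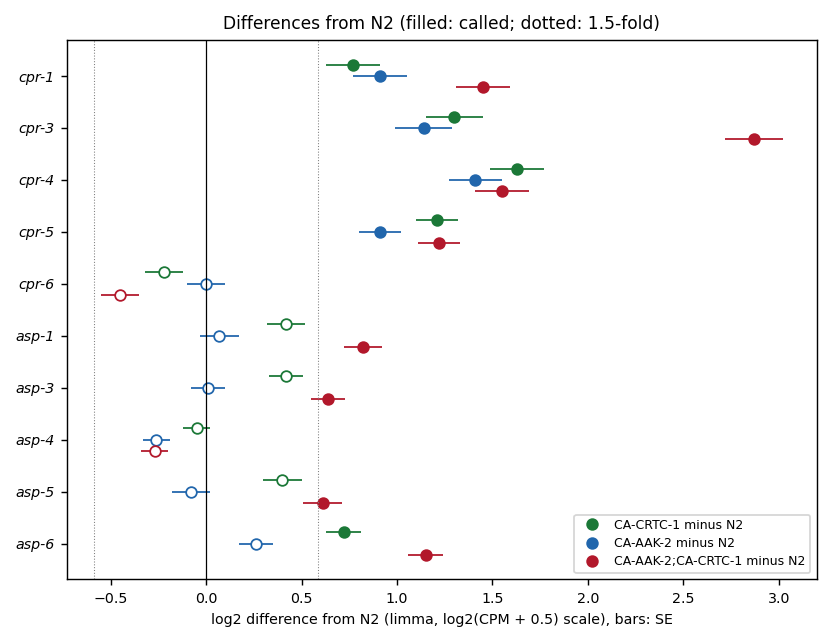
log2 difference from N2 (limma, log2 of CPM plus 0.5, horizontal axis) for each protease gene in the 3 transgenic strains, with bars of 1 SE, filled points for called differences and dotted lines at 1.5-fold. cpr-3 in the double strain is the farthest from N2 at 2.87, and cpr-6 and asp-4 lie at or below 0 in all 3 strains.

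Counted over the list, CA-CRTC-1 against N2 had 5 of 10 genes higher (cpr-1, cpr-3, cpr-4, cpr-5 and asp-6), where 6.62% of all genes tested were called higher, and 0 lower, where 2.17% were called lower. CA-AAK-2 against N2 had 4 higher (cpr-1, cpr-3, cpr-4 and cpr-5) against 8.2% of all genes, and 0 lower against 4.4%. The double strain against N2 had 8 higher against 15.6% of all genes, and 0 lower against 6.87%. Without library 3 of the double strain the last count was 6, asp-3 and asp-5 being lost. The 3 comparisons share their N2 libraries and are not independent of each other. edgeR on the recovered reads called 5, 4 and 8 of the 10 genes. At an unadjusted p under 0.05 in limma there were 9, 6 and 10. After median-ratio scaling the double strain had 6 rises and 1 fall (cpr-6) in place of 8 and 0.

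The median difference of the 5 cysteine genes was 1.21 in CA-CRTC-1, 0.91 in CA-AAK-2 and 1.45 in the double strain. That of the 5 aspartyl genes was, in the same order, 0.42, 0.01 and 0.64, and that of all genes tested 0.07, 0.11 and 0.14. With median-ratio scaling the all-gene median became -0.03, -0.01 and -0.03. It moved those of the cysteine genes to 1.1, 0.79 and 1.28 and of the aspartyl genes to 0.32, -0.11 and 0.47, so the direction of the aspartyl median in CA-AAK-2 depends on the scaling. It also moved the share of rises among all calls from 75.3 to 61.6% in CA-CRTC-1, from 65.1 to 42.6% in CA-AAK-2 and from 69.5 to 48.0% in the double strain.

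The 2 single-transgene strains were also compared directly. CA-AAK-2 against CA-CRTC-1 had 0 of 10 genes higher, where 1.6% of all genes were called higher, and 0 lower, where 5.47% were called lower. edgeR also called 0, and 7 of the 10 genes had an unadjusted p under 0.05 in limma. The 4 aspartyl genes asp-5 (-0.48 ± 0.10, adjusted p = 0.00294), asp-6 (-0.45 ± 0.09, 0.00246), asp-3 (-0.41 ± 0.09, 0.00406) and asp-1 (-0.36 ± 0.10, 0.0149) were lower in CA-AAK-2 in every library but short of 1.5-fold. Of the cysteine genes, cpr-4 differed by -0.22 ± 0.14 (95% interval -0.52 to 0.07) and cpr-3 by -0.16 ± 0.15 (95% interval -0.49 to 0.17). cpr-5 was lower in every CA-AAK-2 library, with a difference of -0.29 ± 0.11 (95% interval -0.53 to -0.06, adjusted p = 0.055), and cpr-6 differed by 0.22 ± 0.10 (0.00 to 0.44). asp-4 differed by -0.22 ± 0.07 (-0.37 to -0.06, 0.0367), and none of these passed.

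The design also asks what CA-CRTC-1 changes where CA-AAK-2 is already present. The double strain against CA-AAK-2 had 5 genes higher, where 7.66% of all genes were called higher, and 0 lower, where 3.63% were. These were cpr-3 (1.73 ± 0.15, adjusted p = 8.6e-07), asp-6 (0.89 ± 0.09, 4.1e-06), asp-1 (0.76 ± 0.10, 3.6e-05), asp-5 (0.68 ± 0.10, 9.7e-05) and asp-3 (0.62 ± 0.09, 8.7e-05). Without library 3 of the double strain 3 were called, with asp-3 at 0.51 and asp-5 at 0.54, and median-ratio scaling ended the call of asp-3 (0.57). cpr-4 differed by 0.14 ± 0.14 (95% interval -0.15 to 0.44), cpr-5 by 0.30 ± 0.11 (0.07 to 0.54) and cpr-1 by 0.54 ± 0.14 (0.24 to 0.84), none of them called. cpr-1 passed without library 1 (0.64) or library 2 (0.67) of the double strain.

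**Figure D3:**
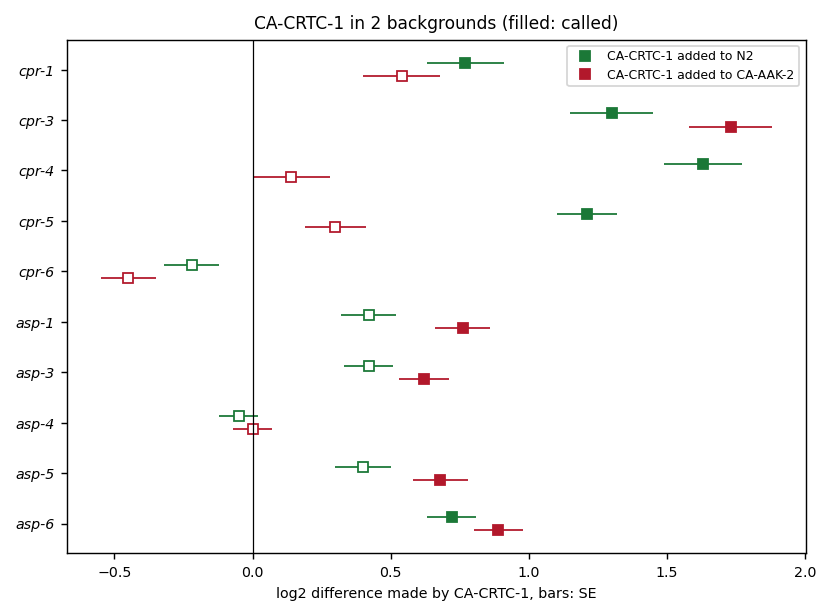
log2 difference made by CA-CRTC-1 (horizontal axis, bars of 1 SE, filled where called) when added to N2 and when added to CA-AAK-2, for each protease gene. For cpr-4 and cpr-5 the difference is 1.63 and 1.21 in N2 but 0.14 and 0.30 in CA-AAK-2.

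The difference between the 2 backgrounds was tested itself, by subtracting what CA-CRTC-1 changed in N2 from what it changed in CA-AAK-2. The crtc-1 transcript was at a mean of 189 CPM in CA-CRTC-1 and 362 in the double strain, and the part of this inequality was not tested. The difference between backgrounds is given next. It was called for 2 genes, both lower, where 4.82% of all genes were called lower, and for 0 higher, where 3.91% were. For cpr-4 it was -1.49 ± 0.19 (95% interval -1.90 to -1.08, adjusted p = 1.1e-04) and for cpr-5 -0.90 ± 0.16 (-1.24 to -0.57, 9.3e-04). Both were called in each of the 12 fits that left out 1 library and under pseudocounts of 0.1 and 2, no filter, median-ratio scaling, edgeR and the replicate block. The 4 aspartyl genes that rose in the double strain gave asp-1 0.33 ± 0.14 (0.04 to 0.63, 0.105), asp-5 0.28 ± 0.14 (-0.02 to 0.59), asp-3 0.20 ± 0.13 (-0.07 to 0.48) and asp-6 0.17 ± 0.13 (-0.11 to 0.45), none called. cpr-3 gave 0.43 ± 0.22 (-0.03 to 0.90, 0.17) and cpr-1 -0.22 ± 0.20 (-0.64 to 0.19, 0.43).

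CA-AAK-2 was added in turn to animals that already had CA-CRTC-1. The double strain against CA-CRTC-1 had 2 genes higher, where 4.68% of all genes were called higher, and 0 lower, where 4.17% were. cpr-3 rose by 1.57 ± 0.15 (adjusted p = 4.2e-06) and cpr-1 by 0.69 ± 0.14 (0.00161). cpr-1 was not called without library 3 of the double strain (0.47) or in a fit of those 2 strains alone (adjusted p = 0.0144). cpr-4 differed by -0.08 ± 0.14 (95% interval -0.37 to 0.21) and cpr-5 by 0.01 ± 0.11 (-0.23 to 0.24). asp-6 (0.43 ± 0.09, 0.00244) and asp-1 (0.40 ± 0.10, 0.00591) were short of 1.5-fold.

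The summed level of the 10 genes was 8019.9 ± 354 CPM (SD, n = 3) in N2, 11053 ± 274 in CA-CRTC-1, 9152 ± 319 in CA-AAK-2 and 13429 ± 1754 in the double strain. The sum over the 5 aspartyl genes ranged over 5602 to 6179 CPM in N2 and 5858 to 6371 in CA-AAK-2, which overlap, and over 7823 to 8586 in CA-CRTC-1 and 9257 to 11290.0 in the double strain, which do not. The sum over the 5 cysteine genes ranged over 2048 to 2177 CPM in N2, 2783 to 3087 in CA-CRTC-1, 2932 to 3021 in CA-AAK-2 and 2622 to 4044 in the double strain, so the 3 transgenic strains overlapped. cpr-6, the most abundant cysteine gene in N2, made up less of the list in the double strain. Its share of the summed CPM of the 10 genes was 16 ± 0.597% (SD, n = 3) in N2, 9.99 ± 0.885% in CA-CRTC-1, 14 ± 0.925% in CA-AAK-2 and 7.04 ± 0.327% in the double strain. The ratio of cpr-4 to cpr-6 was 0.142 to 0.152 in N2, 0.478 to 0.572 in CA-CRTC-1, 0.371 to 0.434 in CA-AAK-2 and 0.553 to 0.656 in the double strain.

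In the WBcel235 annotation 7 of the genes lie on chromosome V and 3, namely cpr-6, asp-3 and asp-4, on X. All are protein coding with 1 annotated transcript, and cpr-4 contains a piRNA gene (21ur-14330) on its other strand. Exon numbers run from the 1 exon of asp-1 (V, 19049562 to 19050752, minus strand) to the 8 exons of cpr-6 (X, 6607207 to 6609045, plus strand). asp-6 (V, 8267511 to 8268937, minus strand) and asp-5 (V, 8272385 to 8274044, plus strand) are 3447 bp apart with asp-12, another aspartyl protease, between them. Build and gene set of the deposited counts are uncertain, so these positions only place the genes.

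The gene between asp-6 and asp-5 had another pattern over the strains. asp-12 was at 50.2, 53.2 and 52.7 CPM in N2, 113, 130.0 and 114 in CA-CRTC-1, 29.4, 24.7 and 24.6 in CA-AAK-2 and 199, 145 and 242 in the double strain. It rose in CA-CRTC-1 (1.18 ± 0.14, adjusted p = 1.8e-05), fell in CA-AAK-2 (-0.98 ± 0.14, 8.6e-05) and rose in the double strain (1.87 ± 0.14, 8.0e-08). The ratio of asp-6 to asp-12 was 21.2 to 23.0 in N2 but 48.5 to 56.5 in CA-AAK-2 and 11.9 to 16 in the double strain. The ratio of asp-5 to asp-12 was 12.2 to 12.4 in N2, 20.0 to 26.2 in CA-AAK-2 and 4.55 to 5.98 in the double strain.

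cpr-5 also has a family member beside it, cpr-8, at 566 bp. cpr-8 was at 11.4, 12.8 and 14.3 CPM in N2 and 8.68, 9.07 and 7.41 in the double strain, a called difference of -0.59 ± 0.13 (adjusted p = 0.00126) where cpr-5 rose. That fall was not called without library 3 of the double strain (-0.50) or N2 library 3 (-0.51), nor with a pseudocount of 2 CPM (-0.51). The ratio of cpr-5 to cpr-8 was 16.4 to 19.5 in N2 and 49.5 to 89.0 in the double strain.

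**Figure D4:**
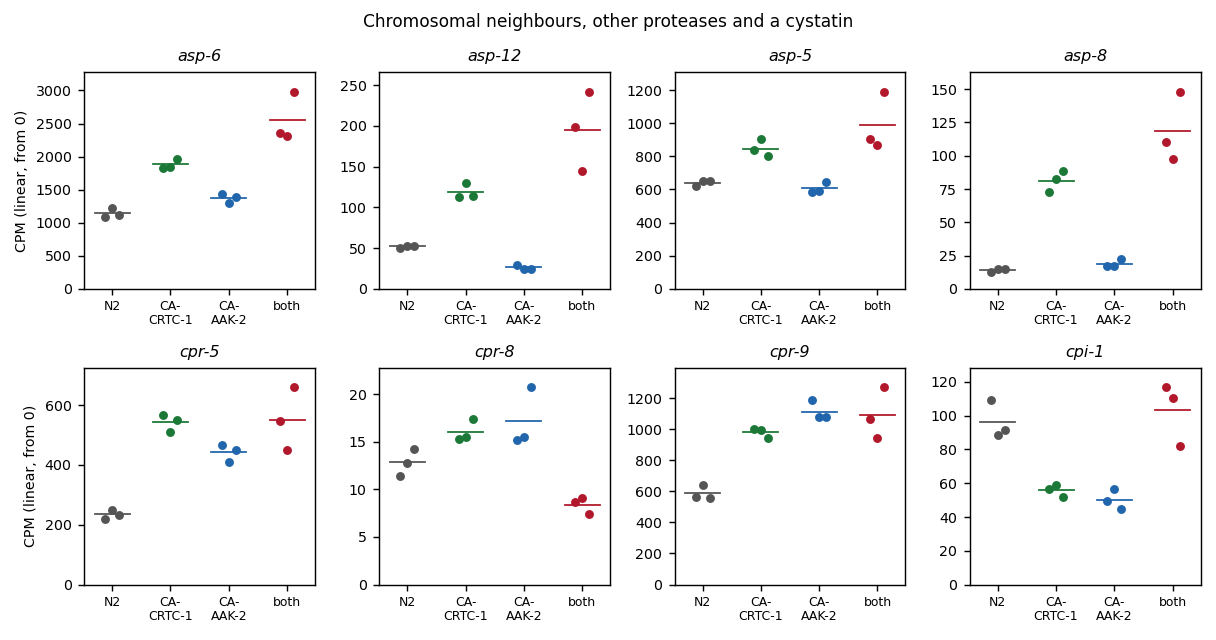
CPM per library (points) and strain mean (line) on linear axes from 0 for asp-6, asp-12 and asp-5, which lie side by side, for asp-8, for cpr-5 with its neighbour cpr-8, for cpr-9, and for the cystatin gene cpi-1. asp-12 lies below N2 in every CA-AAK-2 library, where asp-6 lies above N2 and asp-5 overlaps it, and cpi-1 is low in the 2 single-transgene strains.

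Other proteases of the same classes were read for comparison. Of 21 other cysteine cathepsin genes 14 were measured and 11 tested. Against N2, 1 was higher and 0 lower in CA-CRTC-1, 1 higher and 0 lower in CA-AAK-2, and 1 higher and 4 lower in the double strain. Among all genes tested, 6.62, 8.2 and 15.6% were called higher and 2.17, 4.4 and 6.87% lower, in the same order. After median-ratio scaling Y65B4A.2 was a called fall in CA-CRTC-1 (-0.64, from -0.54 as deposited) and in CA-AAK-2 (-0.62, from -0.50). The rise in all 3 strains was cpr-9 (0.74 ± 0.10, 0.92 ± 0.10 and 0.89 ± 0.10). The falls in the double strain were cpr-8, cpz-1 of the cathepsin Z type (-0.71 ± 0.09), R07E3.1 (-0.84 ± 0.07) and R09F10.1 (-0.79 ± 0.10). The median of this list was 0.10, 0.23 and -0.37, beside the 1.21, 0.91 and 1.45 of the cysteine genes described here. cpl-1, the cathepsin L gene, was at 1051 ± 28.7 CPM in N2, 1170.1 ± 19.2 in CA-CRTC-1, 1358 ± 129.9 in CA-AAK-2 and 904 ± 160.1 in the double strain (SD, n = 3). It was not called against N2 (0.16 ± 0.11, 0.37 ± 0.11 and -0.23 ± 0.11) but was lower in the double strain than in CA-AAK-2 (-0.60 ± 0.11, adjusted p = 5.3e-04), a call lost without CA-AAK-2 library 1 (-0.57) or 3 (-0.54) or double library 2 (-0.47).

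These relatives also differed between backgrounds in what CA-CRTC-1 changed. Of the 11 tested 6 were called lower in that test and 1 higher, with a list median of -0.60, beside 2 lower of the 10 genes described here. Of all genes tested 4.82% were called lower and 3.91% higher, with a median of -0.08. The lower relatives were cpr-8 (-1.30 ± 0.18, adjusted p = 1.9e-04), cpr-9 (-0.77 ± 0.14, 0.00105), cpl-1 (-0.75 ± 0.15, 0.00273), cpz-1 (-0.65 ± 0.12, 0.00206), F32H5.1 (-0.62 ± 0.12) and R07E3.1 (-0.60 ± 0.11). The higher relative was Y65B4A.2 (0.67 ± 0.14). Median-ratio scaling ended the calls of F32H5.1 (-0.57) and R07E3.1 (-0.55), and each of the 7 calls but those of cpr-8 and cpr-9 was lost in at least 1 fit that left out a library. The sign was therefore shared by cpr-4 and cpr-5 with 6 other cysteine cathepsin genes, and whether the lists differ was not tested. The mean levels behind that sign were not alike. cpr-9 went from 588 to 980 CPM between N2 and CA-CRTC-1, and from 1112 to 1092 between CA-AAK-2 and the double strain. In the same order cpz-1 went from 573 to 446 and 702 to 352, and cpl-1 from 1051 to 1170 and 1358 to 904. cpr-8 went from 12.8 to 16.1 and 17.1 to 8.38, and R07E3.1 from 177 to 175 and 151 to 98.7. F32H5.1 went from 32.3 to 42.4 and 38.0 to 32.2.

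Of 14 other aspartyl protease genes 6 were measured. In CA-CRTC-1 2 were higher of 5 tested, in CA-AAK-2 1 higher and 1 lower of 6, and in the double strain 3 higher and 1 lower of 6. The shares of all genes, in that order, were 6.62, 8.2 and 15.6% higher and 2.17, 4.4 and 6.87% lower. asp-8 had the largest change among these 6 genes. It went from 12.4, 14.8 and 14.8 CPM in N2 to 72.7, 82.6 and 88.2 in CA-CRTC-1 and 110.1, 97.3 and 148 in the double strain. Its differences were 2.49 ± 0.15 (adjusted p = 4.4e-08) and 3.02 ± 0.15 (1.4e-09), with 17, 16.9 and 22.5 CPM and 0.41 ± 0.15 in CA-AAK-2. The other calls were asp-17 in CA-AAK-2 (0.67 ± 0.16), lost without N2 library 1 (0.49) or CA-AAK-2 library 3 (adjusted p = 0.0175), and in the double strain asp-14 (0.72 ± 0.13), lost without its library 3 (0.53), and a fall of asp-13 (-1.25 ± 0.10). Median-ratio scaling also ended the calls of asp-17 (0.57) and asp-14 (0.55), and a pseudocount of 2 CPM that of asp-17 (0.54).

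Cystatins bind and block cysteine cathepsins. cpi-1 was at 109, 88.7 and 91.4 CPM in N2, 56.7, 59.2 and 51.8 in CA-CRTC-1, 49.3, 56.6 and 44.6 in CA-AAK-2 and 117, 111 and 82.2 in the double strain. It fell in both single-transgene strains (-0.78 ± 0.13, adjusted p = 3.7e-04, and -0.94 ± 0.13, 5.9e-05) and overlapped N2 in the double strain (0.09 ± 0.13). The CA-CRTC-1 difference of cpi-1 differed between backgrounds by 1.8 ± 0.18 (1.6e-05), opposite in sign to cpr-4 and cpr-5. The ratio of cpr-1 to cpi-1 was 3.34 to 4.62 in N2, 11 to 12.2 in CA-CRTC-1, 12.3 to 15.5 in CA-AAK-2 and 7.84 to 17.3 in the double strain. The median in the double strain was 7.88, below every library of the single-transgene strains. Its library 3 had the highest cpr-1 and the lowest cpi-1 of the strain. cpi-2, the other cystatin, was at 125 ± 7.26 and 112 ± 15.5 CPM in N2 and CA-CRTC-1 and 127 ± 7.77 and 130.4 ± 3.55 in CA-AAK-2 and the double strain (SD, n = 3), and was called in no comparison.

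Other lysosomal peptidases and lysosome genes were also compared with N2. Among all genes tested 6.62% were called higher and 2.17% lower in CA-CRTC-1, and 8.2 and 4.4% in CA-AAK-2. For the double strain these shares were 15.6 and 6.87%. With 12 and 7 genes tested, the low counts below cannot tell these lists from all genes. Of 13 serine carboxypeptidases, prolyl carboxypeptidases and legumain, 12 were tested, with 0 calls in CA-CRTC-1, a fall of ctsa-3.1 in CA-AAK-2 (-0.61 ± 0.10, lost without N2 library 1 at -0.55 and without CA-AAK-2 library 1 or 2 at -0.57), and a rise of pcp-4 in the double strain (0.74 ± 0.10, 0.58 and not called after median-ratio scaling, which makes ctsa-3.1 a called fall there at -0.62). For the 0 in CA-CRTC-1, 8 of the 12 had an unadjusted p under 0.05 and edgeR also called 0. Of 8 genes of the lysosome membrane and its other hydrolases 7 were tested, with 0 calls in CA-CRTC-1 and in CA-AAK-2 and a rise of the cystine transporter ctns-1 in the double strain (0.66 ± 0.14, 0.49 and not called after median-ratio scaling). For those 0 counts 2 and 3 of the 7 had an unadjusted p under 0.05, and edgeR called 0 in both. The medians of these 2 lists lay between -0.16 and 0.22 against N2. Other comparisons had further calls among the peptidases. The double strain had lgmn-1 higher and ctsa-3.1 lower than CA-CRTC-1, and pcp-4 higher than CA-AAK-2. CA-AAK-2 had ctsa-2 and ctsa-3.1 lower than CA-CRTC-1. In the test between backgrounds lgmn-1 was higher, at 0.80 to 1.01 over fits that left out 1 library. ctsa-4.1 was lower there, a call lost in 8 of those fits.

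Intestine markers were read in the same libraries. All 12 were above 0 in every library, and their summed level ranged over 2542 to 2660.0 CPM in N2, 2366 to 2736 in CA-CRTC-1, 1695 to 1987 in CA-AAK-2 and 1979 to 2067 in the double strain. Of the 12, 0 were called in CA-CRTC-1 by limma or edgeR (2 at an unadjusted p under 0.05), 3 fell in CA-AAK-2 (the filament genes ifb-2, ifc-2 and ifo-1), and in the double strain 4 fell (elt-7, pho-1, pept-1 and spl-1) and elt-2 rose. After median-ratio scaling elt-7 (-0.65) was also a called fall in CA-CRTC-1, pho-1 (-0.68) and pept-1 (-0.69) in CA-AAK-2, and ges-1 (-0.60) and act-5 (-0.69) in the double strain, where the rise of elt-2 was lost. Divided by the geometric mean of the 12 markers in the same library and set to 1 at the N2 mean, cpr-4 stood at 3.33 in CA-CRTC-1, 3.61 in CA-AAK-2 and 3.91 in the double strain. On that scale cpr-3 in the double strain was at 10.09 (7.79 to 12.3 over libraries). asp-1 in CA-AAK-2, near N2 in CPM, was at 1.41 (1.36 to 1.52), asp-6 at 1.62 (1.5 to 1.72) and cpr-6 at 1.36 (1.26 to 1.48). In CA-CRTC-1 asp-1 was at 1.43 (1.31 to 1.56) and asp-6 at 1.75 (1.68 to 1.81). asp-3 was at 1.42 (1.36 to 1.49) in CA-CRTC-1 and 1.36 (1.26 to 1.43) in CA-AAK-2. For asp-5 these were 1.41 (1.28 to 1.48) and 1.28 (1.25 to 1.34). The 2 single-transgene strains thus overlapped on this scale for asp-1, asp-3, asp-5 and asp-6. These ratios are descriptions, and the part of the marker levels in the protease differences was not tested.

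**Figure D5:**
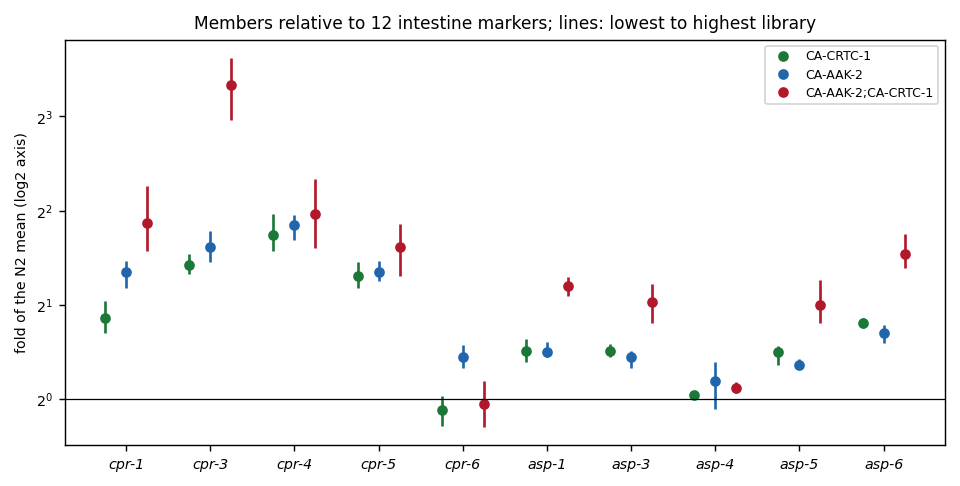
Level of each protease gene divided by the geometric mean of 12 intestine markers in the same library, as fold of the N2 mean (log2 axis), with points at the strain mean and lines from the lowest to the highest of 3 libraries. cpr-3 in the double strain is highest at 10.09, and asp-4 stays between 1.03 and 1.14 in the 3 strains.

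Some markers of another tissue were also higher in the transgenic strains. Of 4 epidermis markers 3 rose in CA-CRTC-1, 2 in CA-AAK-2 and 4 in the double strain, and none was at 0 in any library. In the same order 6.62, 8.2 and 15.6% of all genes were called higher. Their summed level ranged over 116 to 121 CPM in N2, 461 to 540.0 in CA-CRTC-1, 378 to 474 in CA-AAK-2 and 321 to 677 in the double strain. bli-1, a cuticle collagen gene, was at 57.6, 52.8 and 54.5 CPM in N2, 379, 314 and 375 in CA-CRTC-1, 349, 268 and 311 in CA-AAK-2 and 284, 192 and 511 in the double strain, where library 3 was highest for it as for cpr-4. Its CA-CRTC-1 difference also depended on the background (-2.70 ± 0.33, adjusted p = 7.7e-05), as did that of the collagen gene dpy-7 (-3.15 ± 0.36, 4.4e-05). The part of these markers in the protease differences was not tested.

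Markers of the remaining tissues had other patterns. Body-wall muscle had 0 of 4 called in each strain against N2, neurons and germline each 0 of 4 in both single-transgene strains and 1 of 4 in the double strain, and the pharynx 2 of 3 tested in CA-AAK-2, both falls (myo-1 and tnt-4), and 0 in the other strains, though myo-1 is a called fall in the double strain after median-ratio scaling (-0.64). Of the 4 muscle markers 0, 3 and 2 had an unadjusted p under 0.05 in CA-CRTC-1, then CA-AAK-2, then the double strain against N2, and edgeR called 0 in each. The 1 neuron and 1 germline marker were rises of egl-21 (0.64 ± 0.08) and glp-1 (0.67 ± 0.07) that median-ratio scaling ended (0.47 and 0.50), and egl-21 was also not called without library 3 of the double strain (0.54).

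Genes whose log2 CPM followed a protease most closely over the 12 libraries were listed for the 5 genes whose strain means spanned over 2-fold. For cpr-4 they were bli-1 (Pearson r = 0.992), Y65B4BL.1 (0.991) and rml-3 (0.991), and for cpr-5 nas-4 (0.987), an astacin-type metalloprotease, cpr-4 itself (0.987) and C34F6.1 (0.985). For cpr-3 they were the C-type lectin genes clec-17 (0.990) and clec-67 (0.987) and the lysozyme gene lys-7 (0.989). For cpr-1 they were T19C9.8 (0.978), the saposin-like gene spp-18 (0.976) and F09C8.1 (0.976), and for asp-6 C49C8.5 (0.991), dod-24 (0.989) and sysm-1 (0.989). Among the proteases asp-3 and asp-5 correlated at 0.98 and asp-3 and asp-6 at 0.96, cpr-4 and asp-5 at 0.57, and cpr-6 and asp-1 at -0.82. The 12 libraries fall into 4 strains, so these values describe which genes share a pattern over strains.

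Regulators known in the gut or in the 2 pathways were read as well. elt-2 was at 20.4 ± 0.0803 CPM (SD, n = 3) in N2, 21.3 ± 1.13 in CA-CRTC-1, 19.3 ± 1.38 in CA-AAK-2 and 32.8 ± 0.118 in the double strain, where it rose by 0.67 ± 0.08 (adjusted p = 4.6e-06) as deposited and by 0.50, not called, after median-ratio scaling. Its paralogue elt-7 fell in the double strain (-0.75 ± 0.12, 1.0e-04). hlh-30, which drives lysosome and autophagy genes, was at 75.5 ± 9.91 CPM in N2 and 98.8 ± 0.691 in the double strain (0.39 ± 0.11, not called). In the double strain pqm-1 (0.11 ± 0.07), daf-16 (0.43 ± 0.09), skn-1 (0.43 ± 0.07) and crh-1, the CREB gene (0.51 ± 0.11), were not called against N2.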

How the data were processed

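Polyadenylated RNA of 12 whole-animal samples, 3 in each of 4 strains, was sequenced in 50 cycles from both ends. Libraries were made from 4 µg of RNA with an integrity number of 10. The deposited values are CPM. Per the series' design text the authors used edgeR to adjust them for library size and composition. Per the submitters' processing notes the tools were CASAVA 1.8.2, cutadapt, TopHat2 2.0.8, HTSeq and edgeR. Since ce6 and WS238 are both named as the genome, the build is uncertain, and positions come from WBcel235. How reads shared by related genes were counted is not given in the sources used here.

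Each table has 14508 entries, 72 under identifiers since retired, and for 3 names listed again the first entry was used. All CPM values are whole multiples of 1 read within 0.02, so reads could be recovered. Differences were tested with limma 3.58.1 (R 4.3.3, trended prior) on log2 of CPM plus 0.5, with all 12 libraries in 1 fit and no replicate block. Genes needed a mean of 1 CPM over all libraries to be fitted and 5 CPM over those compared to be adjusted. Calls required an adjusted p of at most 0.01 and a 1.5-fold change, thresholds taken from the design text. Fold changes on this scale understate changes of low genes. Before use the fit was run on reads simulated from the N2 levels and spread, with changes placed in CA-CRTC-1 only. Its outcome is not given here, and it does not cover the spread within the double strain.

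Alternatives were pseudocounts of 0.1 and 2, no filter, median-ratio scaling, a fit of only the groups compared, edgeR 4.0.16 on the recovered reads, replicate number as a block, and leaving out each library. The same alternatives for genes of the comparison lists were added after seeing the data. The members, lists and comparisons were chosen with earlier results of these data known. The genes named were all members, list genes called against N2, regulators, cystatins, and for each member spanning over 2-fold the 3 most correlated genes. Of list genes called only in other comparisons some are not described. Examples are Y40H7A.10 in CA-AAK-2 against CA-CRTC-1 and myo-2 in the double strain against CA-AAK-2. The series' design text calls the samples biological replicates, and the labels do not say what a replicate number shares. Deviations from group means of same-numbered samples of CA-AAK-2 and the double strain correlated at 0.204, 0.276 and 0.246, so by the rule that every pair exceeds 0.1 the numbers were taken to pair these 2 strains on the evidence of the data alone, and other pairs of strains did not meet it. Promoter sequences were not analysed here.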

Additional observations from a re-analysis of the deposited data

Results flagged for a closer look

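The effect of CA-CRTC-1 differed between the N2 and CA-AAK-2 backgrounds for cpr-4 by -1.49 ± 0.19 (log2, adjusted p = 1.1e-04 by limma). There were 3 libraries a strain, and the SE comes from the fit of all 12 libraries. For cpr-5 it differed by -0.90 ± 0.16 (adjusted p = 9.3e-04). Both were flagged because this test of the difference itself passed. The crtc-1 transcript was higher in the double strain than in CA-CRTC-1 (means of 362 and 189 CPM), and the part of this was not tested. cpr-4 went from 190.2 ± 9.03 CPM in N2 to 593 ± 56.4 in CA-CRTC-1, and from 506 ± 25.4 in CA-AAK-2 to 572 ± 154 in the double strain (SD, n = 3). cpr-5 went from 234.8 ± 14.4 to 543 ± 28.9, and from 443 ± 30.6 to 552 ± 105 CPM. Of 11 other cysteine cathepsin genes tested 6 were called in the same direction and 1 in the other, with a median of -0.60. Of all genes tested 4.82% were called lower and 3.91% higher. The levels behind the shared sign were not alike among the cysteine genes. Of 4 epidermis markers 2 were called, bli-1 and dpy-7, both in the same direction (-2.70 ± 0.33 and -3.15 ± 0.36). elt-3 and lin-26 were not called, and the part of these markers in the result was not tested.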

How the results depend on the processing

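Counts of called protease genes kept within 1.5 times their values under both pseudocounts, no filter, median-ratio scaling and edgeR in all 7 contrasts. A fit of only the groups compared gave 1 call instead of 2 for the double strain against CA-CRTC-1. Replicate number as a block, the replicate block, changed no call of the 10 genes, for example cpr-4 in the interaction at -1.49 (adjusted p = 1.2e-04). Leaving out 1 library gave 5 to 5, 4 to 4, 6 to 8, 3 to 6, 1 to 2, 0 to 0 and 2 to 2 called protease genes, in the order CA-CRTC-1, then CA-AAK-2, then the double strain against N2, the double strain against CA-AAK-2 and against CA-CRTC-1, CA-AAK-2 against CA-CRTC-1, and the interaction. Over all genes the ranges were 767 to 968, 1113 to 1376, 2279 to 2471, 1085 to 1307, 819 to 1191, 584 to 829 and 708 to 1132. Without the filter all-gene calls were 1644 (CA-CRTC-1), 3632 (double) against N2, 1986 (double against CA-AAK-2) and 1270 (CA-AAK-2 against CA-CRTC-1), where more genes were tested. Values that changed sign were near 0. Median-ratio scaling gave -0.12 for cpr-6, -0.05 for asp-1 and -0.11 for asp-3 in CA-AAK-2 against N2, and -0.06 for cpr-5 in the double strain against CA-CRTC-1. It moved the share of rises among calls of that last contrast from 52.9 to 39.8%. Leaving out 1 library gave -0.02 to 0.03 for cpr-6 and -0.02 to 0.04 for asp-3 in CA-AAK-2 against N2. It gave -0.08 to 0.06 for asp-4 and -0.06 to 0.31 for cpr-4 in the double strain against CA-AAK-2, -0.13 to 0.15 for cpr-5 and -0.29 to 0.09 for cpr-4 in the double strain against CA-CRTC-1, and -0.04 to 0.10 for asp-4 in the interaction. The cause of these changes was not tested. The 3 libraries a strain, 1 line a strain and whole-animal RNA limit what the values can resolve, and depth does not, since the scarcest of the 10 genes was at 7.48 CPM or more.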
